A study of Mus musculus with 12 samples.

Results

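The 8 genes described here encode inhibitors of the cell cycle and the proteins through which they act: Cdkn2a, Cdkn2b, Cdkn2c and Cdkn2d of the Ink4 family, Cdkn1a and Cdkn1b of the Cip/Kip family, and the tumour suppressors Trp53 and Rb1. Their members in the data were cytosines of CpG dinucleotides inside the gene or in the 2000 bp before it on the mm10 mouse genome, selected on coverage of 10 or more reads in at least 9 of the 12 animals. This gave 1348 rows (each row is 1 cytosine on 1 strand) of the 1697478 rows with that coverage in the whole data set. The 8 genes were themselves proposed after a difference at a Cdkn2a row had been seen in these animals, so the genotype values of Cdkn2a are given below as a description with no test.

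The assay was reduced representation bisulfite sequencing (RRBS), in which genomic DNA is cut with MspI at CCGG and bisulfite turns unmethylated cytosines into T. The DNA came from hippocampus and cortex mixed, of mice labelled as 11 months old, 4 wild type (Wt) and 8 Tg2576 (Tg), which carry a prion promoter-driven human APP transgene with the Swedish familial Alzheimer's disease mutation. The Wt libraries were labelled as 3 females and 1 male, and the Tg libraries as 4 females and 4 males. A methylation level is the percent of reads with C at a cytosine, and in a bulk mixture a change in the share of cell types and a change within cells cannot be told apart.

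The library labelled Wt male had a mean level of 19.9% on chromosome X, against 20.7% to 23.0% in the 7 libraries labelled female and 5.50% to 5.67% in the 4 Tg males, so it went against its sex label. It was kept in its group, and values without it are given where a result rests on it. Total coverage ran from 33619981 reads in Tg female 4 to 131446104 in Tg female 1. At the member rows a library had 10 to 132 reads, with a median of 40.5 over rows. The tissue label was set against marker genes by promoter methylation. All 8 neuronal marker promoters were under 5%, as were 2 of 3 astrocyte and 2 of 3 oligodendrocyte promoters, and no microglial promoter was covered in every library. The only measured promoter of a gene of other tissues, that of the germ cell gene Dazl, was also under 5% (4.32%), so these levels did not separate brain from other tissue.

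Ink4 proteins bind the D-cyclin dependent kinases Cdk4 and Cdk6 and keep them from phosphorylating Rb, which otherwise holds back E2f-driven entry into S phase. The Cdkn2a locus encodes both p16Ink4a and, from a distant first exon in another reading frame, p19Arf, which stabilises p53 by binding Mdm2, and p53 in turn activates Cdkn1a (p21). Methylation of the CpG-rich starts of these genes is a known route to their silencing in tumours, and p16Ink4a is widely used as a marker of senescent cells.

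The covered rows of the 8 genes were almost all unmethylated. In 1272 of 1348 rows (94.4%) the mean over animals was under 5%, and 282 rows had no methylated read in any animal. The 41 rows over 20% lay in coding exons (21 rows), introns (18 rows) and the 5′ untranslated region of Cdkn2c (2 rows). Rows with more than 10 CpGs in the 50 bases on either side and at the row itself averaged 0.904% (626 rows), those with 3 to 4 CpGs averaged 20.1% (82 rows) and those with 1 to 2 averaged 31.3% (12 rows). Both strands of 566 CpGs were covered, and their mean levels differed by over 10 points at only 2, both in Cdkn2c. The coverage rule mattered at its edge: the 56 rows covered in exactly 9 animals averaged 23.5%, and 77 rows left out with 8 animals averaged 9.17%.

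**Figure D1:**
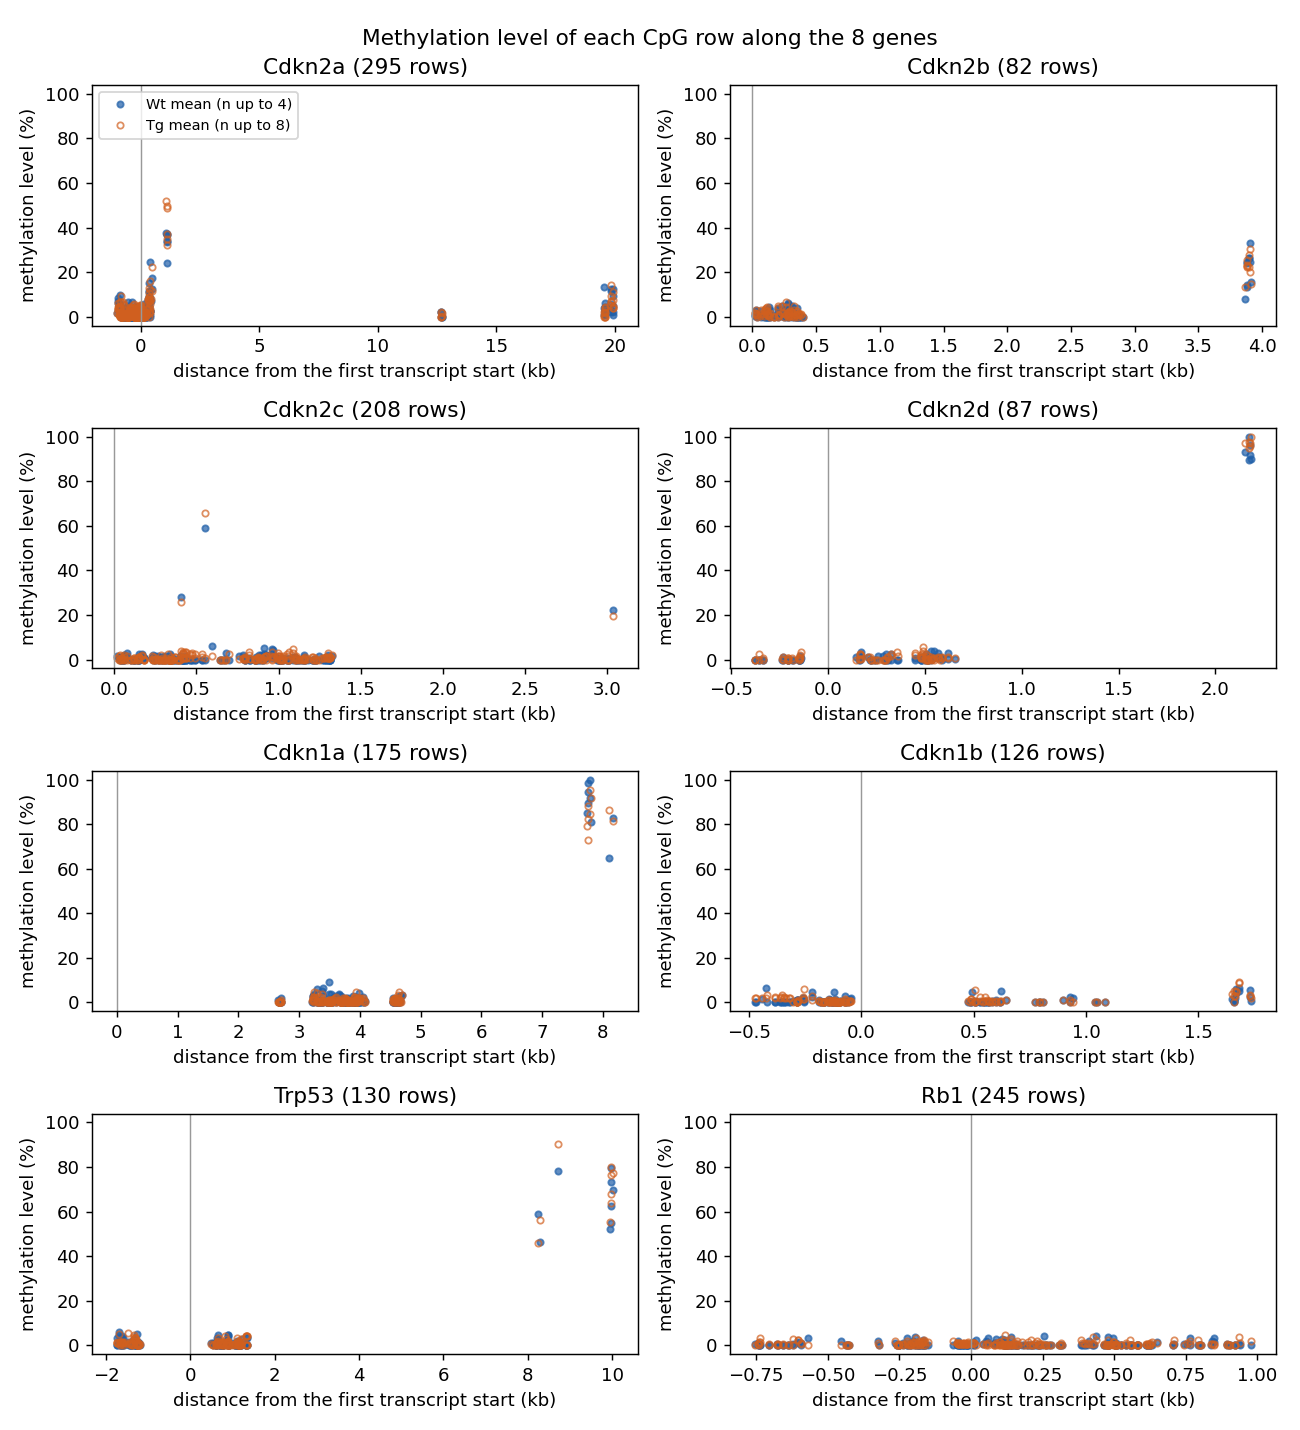
Mean methylation level in percent of each covered CpG row in Wt (filled) and Tg (open) animals against the distance in kb from the first transcript start of the gene. Most rows of every gene sit under 5%, and the higher values form short groups inside the genes, such as those about 1 kb into Cdkn2a (up to 47.1% over all animals) and those over 80% in Cdkn2d and Cdkn1a.

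The covered promoters were compared as means per animal over rows with 10 or more reads in all 12 animals, within 1000 bp of any transcript start. The order of the 8 promoter levels was Cdkn2a (2.01% ± 0.579), Cdkn2b (1.62% ± 0.797), Trp53 (1.12% ± 0.659), Cdkn2d (0.845% ± 0.455), Cdkn2c (0.749% ± 0.265), Cdkn1a (0.726% ± 0.304), Cdkn1b (0.620% ± 0.215) and Rb1 (0.595% ± 0.326), each SD over n = 12. Over all covered promoter rows, not only those in all 12 animals, the Cdkn1a mean was 6.54%, the highest of the 8, because of 7 methylated coding exon rows described below, and the others stayed between 0.581% and 1.89%. Each step in the order above was smaller than the SD of the genes on either side of it. Among the 12645 protein-coding promoters measured in the same way the median was 0.884%, and 92.2% were under 5%. The Cdkn2a promoter level exceeded that of 83.3% of them and that of Cdkn2b exceeded 79.1%, whereas Rb1 exceeded 14.1%. In Cdkn2b and Trp53 every covered promoter row lay past the start, as given below.

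Gene bodies stood higher in 4 of the 5 genes with at least 5 such rows in both regions. The body exceeded the promoter by 19.1 points ± 10.6 (SD, n = 12) in Cdkn2b, by 9.11 ± 1.25 in Trp53 and by 7.14 ± 2.53 in Cdkn2a, in 12 of 12 animals each (two-sided exact permutation test by sign flips, p = 0.000488, the smallest p that 12 animals allow). In Cdkn1b the body was higher by 3.08 points ± 2.76 in 11 of 12 animals (exact permutation p = 0.000977), and in Cdkn1a the difference was 0.0751 ± 0.479 (exact permutation p = 0.602). These are raw p-values of 5 tests. The Cdkn2b body was 9 rows of 1 coding exon stretch (chr4:89307123-89307170), and the Cdkn1b body was 8 rows about the end of its coding exon. These values describe those stretches and not the whole gene bodies. The Trp53 difference rested on introns with few reads. With a minimum of 20 reads, 6 promoter and 10 body rows were left and the difference was -0.567 points (exact permutation p = 0.444). Cdkn2a, Cdkn2b and Cdkn1b had too few rows at that minimum to give a value, so their differences were not checked there. With a promoter of 2000 bp, which takes in the Arf intron described below, the Cdkn2a difference was 1.48 points (exact permutation p = 0.0659). The order of the body levels was Cdkn2b (20.8%), Trp53 (10.2%), Cdkn2a (9.15%), Cdkn1b (3.70%) and Cdkn1a (0.801%), with Trp53 and Cdkn2a apart by less than the SD of Cdkn2a. Over all covered body rows the means were 95.7% in Cdkn2d (6 rows), 21.8% in Cdkn2b, 20.7% in Cdkn2c (1 row), 15.1% in Trp53, 12.8% in Cdkn2a, 3.82% in Cdkn1b and 3.07% in Cdkn1a. The median over 4802 protein-coding gene bodies was 20.8%.

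**Figure D2:**
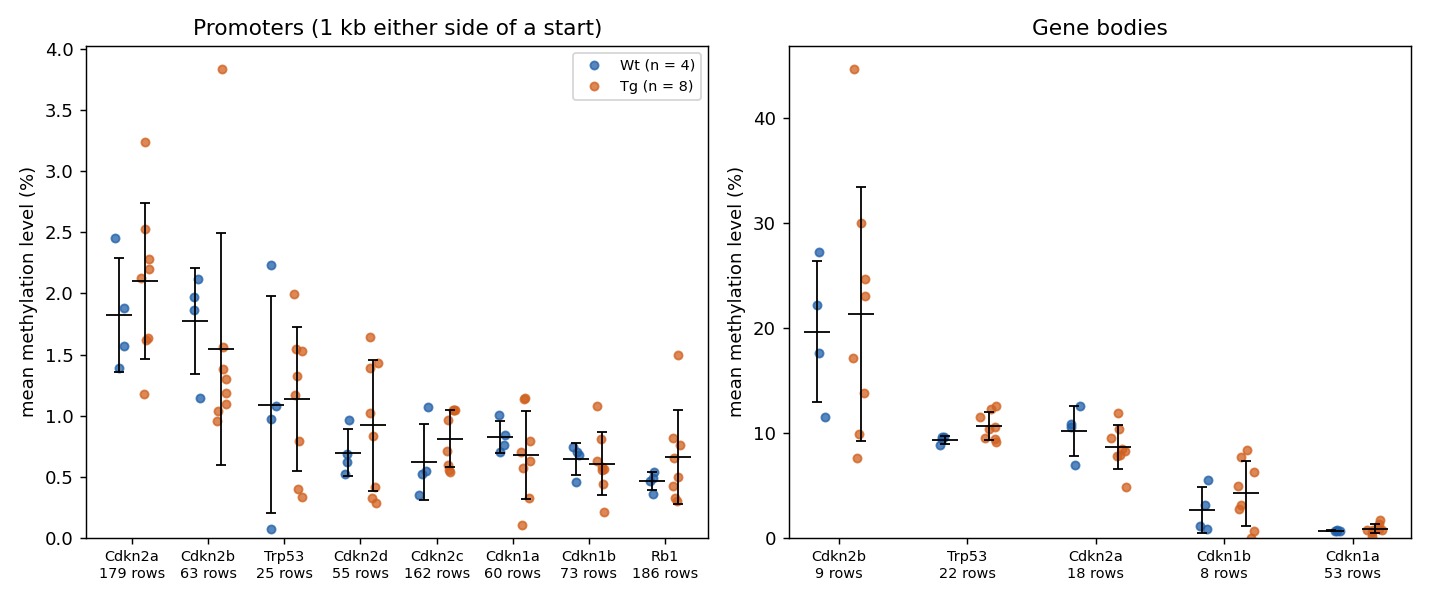
Mean methylation level in percent of the promoter (left) and gene body (right) of each gene, with a point per animal and bars at the mean and SD of 4 Wt and 8 Tg animals. Wt and Tg points overlap in every region, promoters lie at or under 3.84%, and the widest spread between animals is in the Cdkn2b body, from 7.57% to 44.6%.

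Many of the methylated rows lay in 6 MspI fragments with at least 3 rows and a mean of 10% or more, which held 33 rows, out of 156 fragments that held member rows. This cut was made after the values were seen, so these fragments carry no test. Other methylated rows lay outside them, such as chr11:69589075 in Trp53 (87.7%) and chr17:29099150 in Cdkn1a (81.9%). The member rows were 9.08% (Rb1) to 50.7% (Cdkn2c) of the CpG cytosines in the stretch of each gene, and the rest were not analysed. The 6 fragments are printed 5′ to 3′ on the strand of their gene, in mm10 coordinates, with every CpG in capitals.
Cdkn2d coding exon, chr9:21289221-21289253, minus strand: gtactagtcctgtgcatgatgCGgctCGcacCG
Cdkn1a coding exon, chr17:29098721-29098783, plus strand: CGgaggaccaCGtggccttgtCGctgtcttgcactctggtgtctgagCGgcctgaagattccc
Trp53 intron, chr11:69590314-69590386, plus strand: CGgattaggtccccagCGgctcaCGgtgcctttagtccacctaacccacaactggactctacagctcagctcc
Cdkn2a intron after the Arf exon, chr4:89293524-89293599, minus strand: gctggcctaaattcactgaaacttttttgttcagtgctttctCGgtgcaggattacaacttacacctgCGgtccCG
Cdkn2b coding exon, chr4:89307123-89307168, minus strand: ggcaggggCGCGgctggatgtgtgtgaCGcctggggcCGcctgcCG
Cdkn2a intron nearer the Arf exon, chr4:89294182-89294239, minus strand: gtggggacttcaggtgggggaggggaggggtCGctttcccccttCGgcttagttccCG

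Cdkn2a (ENSMUSG00000044303.6) occupies bases 89274471 to 89294653 of chromosome 4 (minus strand) and has a start for Arf and another for p16Ink4a. Its 295 rows were uneven between them. Around the Arf start 264 rows averaged 1.91%, with 219 of them before the start, while around the p16Ink4a start only 5 rows were covered, 192 to 235 bp into the transcript, with levels of 0% to 2.17%. No row before the p16Ink4a start reached the coverage rule, so the level of that promoter proper was not analysed here. The sequences before the starts (RefSeq, build GRCm38.p6, minus strand, CpGs in capitals) show the contrast in CpG content between them.
Before the Arf start, chr4:89294654-89294869: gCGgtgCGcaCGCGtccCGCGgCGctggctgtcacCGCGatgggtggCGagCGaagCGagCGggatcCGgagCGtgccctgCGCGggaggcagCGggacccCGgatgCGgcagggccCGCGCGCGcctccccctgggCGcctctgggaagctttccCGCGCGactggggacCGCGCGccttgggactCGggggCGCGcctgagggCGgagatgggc
Before the p16Ink4a start, chr4:89282193-89282442: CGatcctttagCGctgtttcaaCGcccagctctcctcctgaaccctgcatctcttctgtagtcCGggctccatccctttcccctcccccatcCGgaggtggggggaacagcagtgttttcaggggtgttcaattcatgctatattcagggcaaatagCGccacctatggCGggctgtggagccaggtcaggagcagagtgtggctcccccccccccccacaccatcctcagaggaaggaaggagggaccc
The stretch before the Arf start holds 35 CpGs in 216 bases and that before p16Ink4a holds 7 in 250. In windows of 300 bases around each start, the Arf window had 45 CpGs, more than 98.1% of 32851 mouse promoters of that length, and the p16Ink4a window had 12. CCGG, which reads the same on both strands, occurred 3 times in the Arf window and 2 times in the p16Ink4a window, and 52.8% of all promoters held at least 1. The CpG of CCGG is counted among the CpGs.

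Downstream of the Arf exon the Cdkn2a level was higher in the intron than in the exon. A fragment of coding exon (10 rows) averaged 3.22%, the next of 17 intron rows 6.76% and the next of 3 rows 13.4%. Further on, the fragment of 5 rows at chr4:89293524-89293599 had 38.0%. The row chr4:89293601 (47.1%), minus strand, is the CCGG cytosine at the edge of that fragment of 5 rows. It had 67 reads in Wt and 128 in Tg, against 68 and 128 at chr4:89293531 on that strand, so it is no separate step. In the fragment of 5 rows the Wt animals had 49.7%, 28.6% and 39.3% (females 1 to 3) and 14% (labelled male). The Tg females had 41.2%, 38.6%, 44.4% and 15.6% and the Tg males 45.0%, 28.7%, 36.0% and 59.1%, in the order of their numbers. Wt and Tg overlapped over almost their whole ranges. The means were 32.9% ± 15.3 (SD, n = 4) among Wt animals and 38.6% ± 12.7 (SD, n = 8) among Tg animals.

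**Figure D3:**
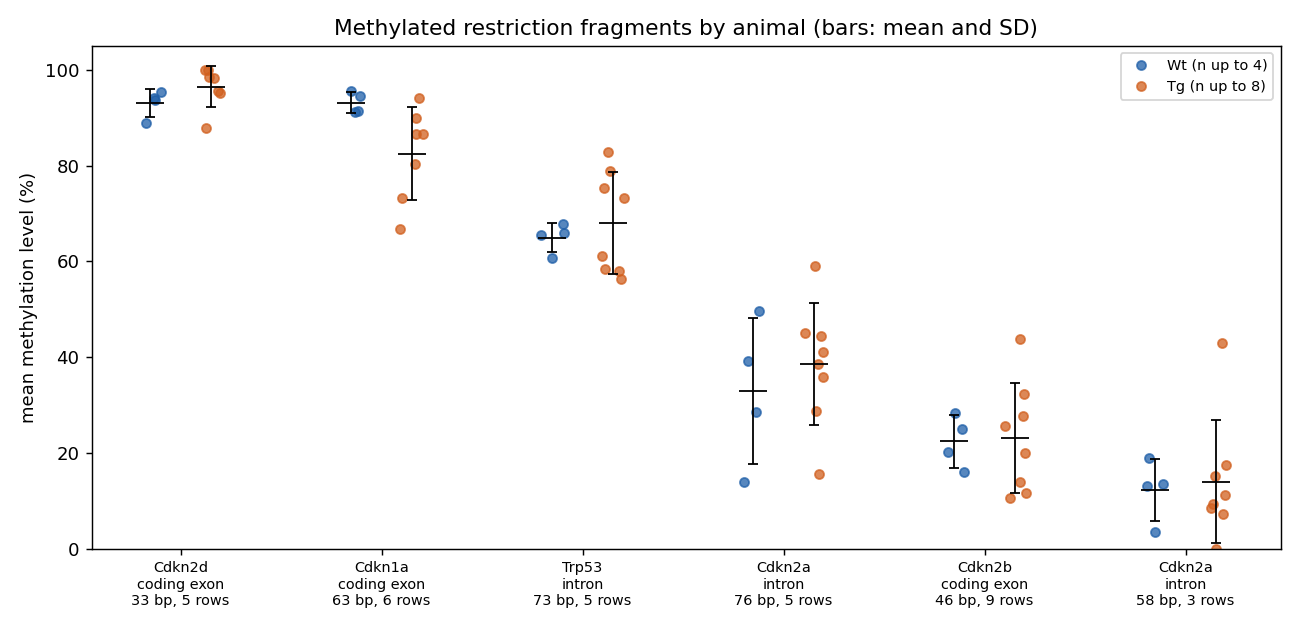
Mean methylation level in percent of the 6 methylated fragments over the rows covered in each animal, with a point per animal for Wt and Tg and bars at the mean and SD. Cdkn2d is over 87% in every animal covered, while the longer Cdkn2a intron fragment runs from 14% to 59.1%, and Wt and Tg overlap in all 6.

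The Cdkn2a row that gave rise to this list lies in the intron before the last exon, at chr4:89275115 on the plus strand, and is the only member row at which the ranges of Wt and Tg did not overlap. Over all rows tested, 0.248% had ranges that did not overlap, against 1 of 1348 here. The sequence around it is printed on the strand of the gene, with the CpG of the row in capitals.
Cdkn2a intron, chr4:89275090-89275141, minus strand: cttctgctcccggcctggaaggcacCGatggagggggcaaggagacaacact
Methylated reads numbered 6 of 75, 3 of 33 and 7 of 51 in Wt females 1 to 3 and 8 of 37 in the library labelled Wt male, which are levels of 8%, 9.09%, 13.7% and 21.6%. In the 8 Tg animals none of 258 reads was methylated, and such a count is compatible with any level up to 1.16% by counting error alone. Without the library labelled Wt male the read-weighted difference was -10.1 points in place of -12.2. The opposite strand of the same CpG, in the same animals, had 3.83% ± 1.83 (SD, n = 4) among Wt animals and 2.01% ± 3.74 (SD, n = 8) among Tg animals, and with both strands added the difference was -6.17 points. The other 7 rows of the 60 bp fragment had Wt means of 0.676% to 6.23% and Tg means of 0% to 4.22%, and their differences ran in both directions, from -4.31 to 1.56 points. Just downstream, the fragment of 9 rows that spans the last exon boundary averaged 7.97% ± 6.68 in Wt and 7.44% ± 2.34 in Tg.

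**Figure D4:**
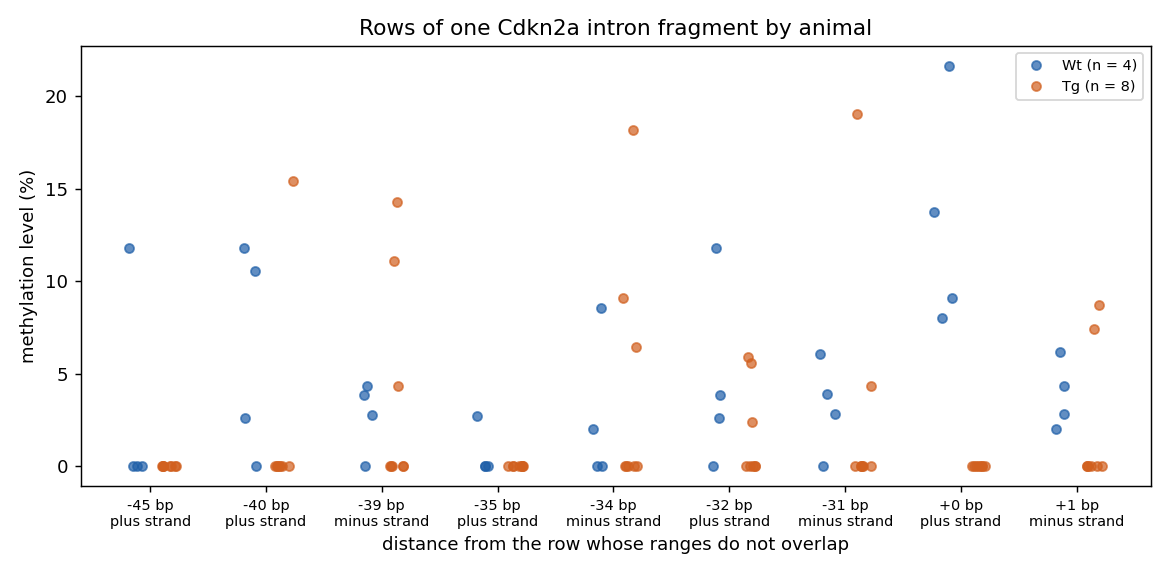
Methylation level in percent of each row of the Cdkn2a intron fragment in 4 Wt and 8 Tg animals, with rows ordered by distance in bp from the row at chromosome 4 position 89275115. At that row the 4 Wt points lie between 8% and 21.6% and all Tg points at 0%, and at every other row, the opposite strand included, the points of both genotypes overlap.

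A second Cdkn2a row with a difference of over 10 points by summed reads was chr4:89293531 on the minus strand, inside the Arf intron fragment. Its levels were 41.7%, 31.3% and 0% in the 3 Wt animals covered and 12.5% to 100% in the 6 Tg animals covered. Tg was higher by 15.9 points over summed reads, by 9.60 without the library labelled Wt male and by 7.53 without Tg male 4, both under 10. The opposite strand had 33.8% in Wt and 32.1% in Tg, a difference of -1.74 points, the other way. The row of lowest mean level outside the promoters was chr4:89275080 (0.225%) and the highest was chr4:89293601 (47.1%), where single animals ran from 0% to 100%.

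By the body level of Cdkn2a over 12 animals, the genes whose values ran most alike were Ephb6 (Pearson r = 0.882), Gm37667 (r = 0.846) and Gm12068 (r = 0.829), out of 5948 other gene bodies. These are the top of a long ranking over 12 points that share library depth, and no test was made.

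Cdkn2b (ENSMUSG00000073802.5) encodes p15Ink4b and lies beside Cdkn2a at 89306299 to 89311039 of chromosome 4, minus strand. Its 72 promoter rows averaged 1.57% and none exceeded 4.87%. They lay 20 to 399 bp past the start, and no row before the start reached the coverage rule. The 9 rows of its coding exon fragment, 46 bp with 5 CpGs, averaged 23.0%. There the Wt animals had 25.1%, 15.9% and 28.3% (females 1 to 3) and 20.2% (labelled male). The Tg females had 19.9%, 32.3%, 10.5% and 27.8% and the Tg males 43.8%, 14.01%, 11.7% and 25.6%. Tg male 1 was highest and also stood at 57.1% at chr4:89307170 on the minus strand, where the other 11 animals had 0% to 23.5%. That row is the CCGG cytosine at the edge of the same fragment. It had 148 reads in Wt and 309 in Tg, against 149 and 315 at chr4:89307160 on that strand. It is therefore not a value from separate reads. The body mean was 19.6% ± 6.72 (SD, n = 4) among Wt animals and 21.3% ± 12.1 (SD, n = 8) among Tg animals, so the Tg animals spanned the whole Wt range (limma adjusted p = 0.995). The largest difference at a row was 12.01 points at chr4:89307160, minus strand (13.3% ± 10.3 in Wt, 25.4% ± 14.97 in Tg), with an adjusted p of 0.166 in the binomial model and 0.761 in the overdispersion model, and the opposite strand differed by -1.45 points. The highest body row was chr4:89307130 (31.4%) and the lowest chr4:89307170 (11.5%).

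Cdkn2c (ENSMUSG00000028551.14, p18Ink4c) occupies bases 109660876 to 109667189 of chromosome 4 (minus strand). Of its 207 promoter rows, 205 were under 5%. The 2 others lay in the 5′ untranslated region, each in a CCGG. The row at chr4:109666637 on the minus strand averaged 64.0%, from 51.7% to 78.6% over 11 animals, while the plus strand of the same CpG had 0.397%. The row at chr4:109666785 on the plus strand averaged 26.7%, from 7.84% to 43.4%, and its minus strand had 2.64%. The first is printed on the strand of the gene, with the CpG in capitals.
Cdkn2c, chr4:109666626-109666647, minus strand: gataagaaacCGgcacagtacc
The strands of these CpGs differed in every animal covered on both, in both genotypes. Over all 8 genes, the 199 rows in a CCGG averaged 6.96% and the 1149 others 2.26%, and what sets these strands apart was not tested. Genotype differed by 7.12 points at the first row (58.8% ± 8.86 (SD, n = 3) in Wt, but 65.9% ± 9.17 (SD, n = 8) in Tg), with adjusted p = 0.735 in the overdispersion model. The only covered body row, in an intron at chr4:109664151, had 20.7%.

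Cdkn2d (ENSMUSG00000096472.2, p19Ink4d) occupies bases 21288410 to 21291407 of chromosome 9 (minus strand) and was the gene with the sharpest contrast between its start and its coding exon. Its 81 promoter rows averaged 0.832% and the highest was 3.78%. Its 6 covered body rows, all in a coding exon about 2 kb downstream, averaged 95.7%, with rows between 94.8% and 97.2%. In the fragment of 5 rows the Wt animals had 95.4%, 88.9% and 94.1% (females 1 to 3) and 93.8% (labelled male). The Tg females had 95.7%, 87.8%, 100% and 100%, and 3 Tg males had 98.3%, 95.2% and 98.5%, with Tg male 2 under the read minimum. Each row was covered in 9 animals only, so the means of single animals are over different rows and strands. All 11 animals were therefore close to full methylation there. The largest difference at a row, 10.2 points at chr9:21289221 (89.8% ± 8.07 (SD, n = 4) in Wt, 100% in each of 5 Tg animals), had adjusted p = 0.00644 in the binomial model but a read-weighted difference of 9.52 points, under the threshold of 10, and adjusted p = 0.513 in the overdispersion model.

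Cdkn1a (ENSMUSG00000023067.14) encodes p21, the inhibitor that p53 activates, and occupies bases 29090976 to 29100727 of chromosome 17 (plus strand). No row before its most upstream start was covered. The 250 bases before that start and before the next main start differ in their content of CpGs (RefSeq, GRCm38.p6, CpGs in capitals).
Before the upstream start, chr17:29090729-29090978: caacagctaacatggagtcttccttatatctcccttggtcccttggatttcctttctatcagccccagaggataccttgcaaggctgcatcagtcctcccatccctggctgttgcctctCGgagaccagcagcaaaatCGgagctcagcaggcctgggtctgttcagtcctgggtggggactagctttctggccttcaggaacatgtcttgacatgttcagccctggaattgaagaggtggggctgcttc
Before the downstream start, chr17:29093519-29093768: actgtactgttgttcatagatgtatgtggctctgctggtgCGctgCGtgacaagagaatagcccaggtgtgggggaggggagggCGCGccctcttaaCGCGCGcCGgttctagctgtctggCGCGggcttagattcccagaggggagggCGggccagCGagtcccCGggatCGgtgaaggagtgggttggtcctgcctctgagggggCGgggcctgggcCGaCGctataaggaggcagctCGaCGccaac
The windows of 300 bases held 2 and 23 CpGs and 0 and 2 copies of CCGG. The 10 rows before the downstream start averaged 0.202%, with none over 0.978%. Another 88 rows, 411 to 999 bp past the start of a further transcript, averaged 0.823%. The 7 methylated rows within 1000 bp of a start (87.5%) lay in a coding exon, 821 to 885 bp past the start of the short transcript Cdkn1a-203, and so count as promoter only by that annotation.

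In that Cdkn1a coding exon fragment the Wt animals had 95.6%, 94.4% and 91.1% (females 1 to 3) and 91.4% (labelled male). The Tg females 1, 2 and 4 had 94.1%, 66.7% and 90.0%, with Tg female 3 under the read minimum, and the Tg males 86.7%, 86.6%, 73.2% and 80.3%. The Wt values lay together, at 93.1% ± 2.21 (SD, n = 4), and the Tg values ranged from below them up to their level, at 82.5% ± 9.71 (SD, n = 7). The row chr17:29098768 within it had 100% in each Wt animal and 84.6% ± 13.9 (SD, n = 6) in Tg, and was called by the binomial model (-11.7 points over summed reads, adjusted p = 0.00214) and not by the overdispersion model (adjusted p = 0.525). Without Tg female 2 or without Tg male 4 the difference was -9.94 or -9.92 points, just under the threshold, which ended the call. On the opposite strand Tg was higher, by 3.89 points. In the intron that follows, chr17:29099084 had 64.8% ± 18.0 (SD, n = 4) among Wt animals and 86.2% ± 15.6 (SD, n = 5) among Tg animals, with adjusted p = 0.0603 in the binomial model and 0.635 in the overdispersion model. The binomial call ended without the library labelled Wt male (19.1 points, adjusted p = 0.377), and also without Tg female 2 (adjusted p = 0.247), Wt female 2 (0.151), Tg male 2 (0.112) or Tg male 3 (0.106). The next intron row, chr17:29099150, at 81.9% the highest outside the promoter, differed by -1.74 points. Just before the intron, the row 885 bp past the start of Cdkn1a-203 had 80.9% in Wt (n = 4) and 91.8% in Tg (n = 5). It is the minus strand cytosine of the CCGG at the edge of the coding exon fragment. Its reads thus come from that fragment, although it was left out of the fragment mean above. Neighbouring methylated rows of this gene thus differed between genotypes in both directions.

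Cdkn1b (ENSMUSG00000003031.14) encodes p27, the inhibitor that holds many postmitotic cells in quiescence, and occupies bases 134920401 to 134925513 of chromosome 6 (plus strand). Its 114 promoter rows averaged 0.756% and its 12 body rows 3.82%. The body rows ranged from 0.140% at chr6:134922061 to 8.30% at chr6:134922083, where the coding exon gives way to the 3′ untranslated region. The opposite strand of the lowest row had 2.24%, and the single row of the next fragment of the 3′ untranslated region had 1.65%. The body levels were 5.51%, 3.08% and 0.837% in Wt females 1 to 3, 1.14% in the library labelled Wt male, 0% to 7.73% in Tg males and 0.658% to 8.33% in Tg females. The genotypes overlapped (2.64% ± 2.16 (SD, n = 4) against 4.22% ± 3.11 (SD, n = 8), limma adjusted p = 0.988). Its largest row difference was at chr6:134920144, 257 bp before the gene, with no methylated read in Wt and 6.12% ± 9.40 (SD, n = 8) in Tg. That mean came from Tg female 3 (26.7%), Tg female 4 (12.5%), Tg female 1 (6.06%) and Tg male 2 (3.70%), and the row had adjusted p = 0.524 in the overdispersion model.

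Trp53 (ENSMUSG00000059552.13) occupies bases 69580359 to 69591873 of chromosome 11 (plus strand). Its 39 promoter rows averaged 0.848%. They lay 451 to 933 bp past the start of the transcript Trp53-202. None lay before it, so the bases at the start itself were not analysed here. The 49 rows further upstream, which overlap the neighbouring gene Wrap53, averaged 1.31%. The intron rows near the start were unmethylated, and all 9 rows over 20% lay in the distal part of the gene. There the fragment of 5 intron rows had 65.8%, 67.9% and 65.5% in Wt females 1 to 3 and 60.7% in the library labelled Wt male. The Tg females had 73.2%, 75.3%, 61.0% and 58.0% and the Tg males 58.3%, 56.3%, 82.9% and 78.9%. Tg values fell on both sides of the narrow Wt range, with means of 64.98% ± 3.03 (SD, n = 4) and 67.99% ± 10.7 (SD, n = 8). The largest row difference was -13.0 points at chr11:69588599 (59.1% ± 17.3 in Wt, 46.1% ± 24.5 in Tg), with adjusted p = 0.623 in the binomial model. The highest row outside the promoter was chr11:69589075 (87.7%), and at chr11:69578966 no read was methylated in any animal.

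Rb1 (ENSMUSG00000022105.6), the target that the Ink4 and Cip/Kip proteins protect from phosphorylation, occupies bases 73183673 to 73325822 of chromosome 14 (minus strand). All 245 covered rows were within 1000 bp of its start and none lay in the rest of its 142150 bp, so the body was not analysed here. They averaged 0.581%, the highest reached 3.86%, and 78 rows had no methylated read in any animal. The promoter level was 0.463% ± 0.0740 (SD, n = 4) among Wt animals and 0.661% ± 0.387 (SD, n = 8) among Tg animals (limma adjusted p = 0.988). The largest row difference, -4.17 points at chr14:73325567, came from Wt female 2 alone (16.7%).

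Whether Tg and Wt differed at single rows of these genes was asked with the regressions fitted over all 1697156 rows. A call needed an adjusted p under 0.1 and a difference of at least 10 points over summed reads. In the binomial model, which treats reads as independent draws, 4.39% of all rows were called, against 2 of the 1053 rows outside Cdkn2a, both in Cdkn1a. Calls went with level: among all rows over 20% they made up 16.8%, against 2 of 32 such rows outside Cdkn2a, and among rows at 20% or less 1.04%, against 0 of 1021. In the overdispersion model, which lets animals of a genotype differ, 0% of all rows were called and none of these genes, the smallest adjusted p over all rows being 0.512. At an unadjusted p under 0.05 that model had 9.42% of all rows, and 98 of the 1053 rows outside Cdkn2a.

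Over the 1348 rows the Tg mean was higher in 654, lower in 412 and equal in 282, and it was within 2 points of the Wt mean in 1035. By summed reads Tg was higher in 49.7% of these rows and lower in 29.4%, against 43.7% and 37.5% of all rows tested. These shares are not matched for level: 2.82% of these rows were over 20% by summed reads, against 21.3% of all rows. With more Tg than Wt animals, the few methylated reads of a low row can fall more often in Tg by group size alone. Rows of matched level were not compared, so whether the direction goes with genotype was not tested. Among the 41 rows over 20%, Tg was higher in 24 and lower in 17. The sign of the difference was the same on both strands of 197 CpGs, opposite on 179 and zero on at least 1 strand of 190. Differences of 10 points or more occurred at 16 of the 1348 rows, 13 of them among the 41 rows over 20%. By gene they were 6 in Cdkn2a, 6 in Cdkn1a, 2 in Trp53, 1 each in Cdkn2b and Cdkn2d, and none in Cdkn2c, Cdkn1b or Rb1. The share of all rows with such a difference is not given here, so this split is a description and no result about these genes.

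**Figure D5:**
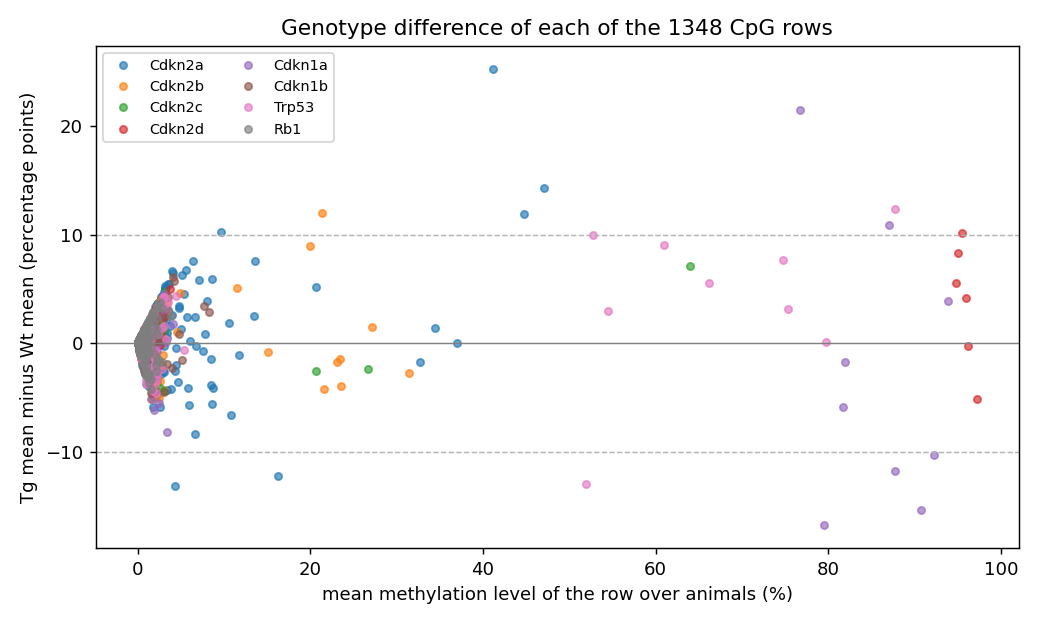
Difference of the Tg and Wt mean level in percentage points against the mean level in percent for each of the 1348 rows, coloured by gene, with dashed lines at 10 points. Rows near 0% gather within a few points of no difference, and the points beyond 10 are mostly methylated rows of Cdkn2a and Cdkn1a on both sides of 0.

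For whole promoters and bodies, limma with sex as covariate called 0% of 21598 regions at an adjusted p under 0.1, and 4.19% had an unadjusted p under 0.05. Of the 11 regions of these genes outside Cdkn2a, none passed either, with sex-adjusted differences from -0.394 points (Cdkn2b promoter, SE 0.515) to 1.73 points (Cdkn1b body, SE 1.66). For Cdkn2a the promoter mean was 1.82% ± 0.465 (SD, n = 4) among Wt animals and 2.10% ± 0.636 (SD, n = 8) among Tg animals, and the body mean 10.2% ± 2.37 and 8.62% ± 2.08. Without the library labelled Wt male the Cdkn2a body difference was -2.69 points in place of -1.59.

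The other genes of these pathways had the same low promoters. Of 63 listed genes 56 had a measured promoter, with a median of 0.824%, and 55 were under 5%. The exception was Cdkn1c (p57), a maternally expressed imprinted inhibitor, at 23.2% ± 4.39 (SD, n = 4) among Wt animals and 23.1% ± 4.45 (SD, n = 8) among Tg animals. Trp73 (3.46%) and E2f4 (2.20%) were among the next highest. Neither the 56 promoters nor the 22 measured bodies held a limma call. At an unadjusted limma p under 0.05, which 4.19% of all 21598 regions had, 2 of the 56 promoters were higher in Tg and 0 lower. None of the 22 bodies had such a p. The 2 promoters were those of Cdk4 (0.118% ± 0.143 in Wt, 0.900% ± 0.860 in Tg) and Sesn2 (0.565% ± 0.243 and 1.003% ± 0.674), both with limma adjusted p = 0.988. These 2 were named after their values were seen.

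Some low fragments carried methylation in a single animal. At chr6:134919846-134920080 before Cdkn1b, Tg male 4 had 14.8% where the next animal had 3.70%, and each of the 14 rows there held 4 to 8 methylated reads of 28 to 56. At the Arf start, chr4:89294635-89294766, Tg female 3 had 12.6% over 35 rows, 18 of them with a methylated read, where the next animal had 1.10%. At chr11:69581572-69581810 in an intron near the start of Trp53, Tg female 3 had 14.5% where the next animal had 1.70%, with a methylated read in 5 of 9 rows. At chr11:69581260-69581431, also in Trp53, Wt female 2 had 12.5% where the next animal had 1.39%, but only 1 of the 9 rows was covered in that library, with 6 methylated reads of 48. These fragments were picked for that contrast and carry no test, and PCR copies of a molecule could not be told from separate molecules in these counts.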

How the data were processed

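Genomic DNA of 12 brain samples was profiled by RRBS, and, as GEO's labels and the study's methods state, a commercial service sequenced paired-end reads on a HiSeq and mapped them with Bismark (build mm10), and the authors imported the alignments into methylKit. The deposited values are counts per cytosine: coverage, reads as C and reads as T, with strands apart, 1 file per animal and at least 10 reads at every listed site. Sites under 10 reads were thus not analysed, and PCR copies stay in the counts, so limits cover counting error only.

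Rows on the autosomes and X were joined, 11 positions with repeated entries were dropped, and rows were annotated with GENCODE vM21 basic genes, whose build matches. The 8 genes and the lists were chosen with earlier results of these data known. The rows named were those past the binomial call, the largest difference of each gene and the highest and lowest rows outside promoters. From the pathway list, called genes were to be named and otherwise the 4 highest promoters, 1 of which is not reported here. Animals carry no replicate numbers in the labels, and nothing says that they share a batch.

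In the binomial model, read counts were regressed on sex and genotype with a logit link, tested by likelihood ratio, and the overdispersion model divided the deviance by a dispersion per row of at least 1 and used an F test (Python 3.11.15, numpy 2.4.6, scipy 1.17.1). Region levels were unweighted means over rows covered in all 12 animals (5 or more rows), fitted with limma 3.58.1 in R 4.3.3. Fragment levels were unweighted means over the rows covered in each animal, so animals can differ in the rows averaged. A minus strand cytosine of a CCGG was placed by position in the fragment of higher coordinates, although its reads come from the fragment of lower coordinates. Benjamini-Hochberg adjustment ran over all rows or all regions. Promoter and body were compared within animals by an exact sign-flip permutation test, two-sided. Models were tested on simulated data. Alternatives varied the read and animal minimums, thresholds, covariate, weighting, strands and promoter size, and left out each animal. The q-value of methylKit was replaced by the adjusted p.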

Additional observations from a re-analysis of the deposited data

Results flagged for a closer look

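The highest or lowest animal of a genotype stood far from the others, by Dixon's criterion at the 95% level, in 4 of 38 groups tested (13 promoter or body levels and 6 methylated fragments, Wt and Tg apart). Chance alone gives about 1 in 20, or 1.9 groups. All 4 were Tg animals, and the 4 flags fell on 4 different animals. The criterion needs a wider gap in a group of 4, as in Wt, than in 1 of 8, so the flags do not compare the genotypes. In the Cdkn2b promoter Tg male 3 had 3.84%, where the other Tg animals had 0.959% to 1.56%. In the Rb1 promoter Tg male 4 had 1.49%, above the 0.302% to 0.815% of the rest. In the Cdkn2a intron fragment nearer the Arf exon (chr4:89294182-89294239) Tg female 4, the library of lowest coverage, had 42.9%, where the others had 0% to 17.6%. In the Cdkn2d coding exon fragment Tg female 2 had 87.8%, below the 95.2% to 100% of the other 6 Tg animals covered. Tg female 2 was covered there at minus strand rows only (84% and 91.7%) and Tg male 3 at plus strand rows only. This flag therefore compares animals over different rows.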

How the results depend on the processing

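Outside Cdkn2a the binomial model called 2 of 1053 rows. The counts that follow include rows of Cdkn2a, whose genotype values carry no test, so they describe the processing only. With Cdkn2a included the number of rows called was 4 of 1348, against 74425 of all 1697156 rows. At a difference of 5 points or more it was 23, against 122331 of all rows, and at 25 it was 0, against 8130. With unweighted means it was 7, against 71191. In the libraries labelled female it was 9 of 1345, against 85539 of 1682837. Where all 12 animals had to be covered it was 1 of 947, against 16871 of 980547. With a minimum of 20 reads it was 1 of 1028, against 20845 of 1126747. Leaving out each animal gave 3 to 9, with 9 without Wt female 3 and 8 without Tg female 1, against 61229 to 89652 of all rows. Without the library labelled Wt male 5 rows were called, with 0 higher in Tg, against 61229 of all rows, with 29722 higher in Tg. The overdispersion model and limma called none of these genes under any alternative. The body-minus-promoter difference of Cdkn2a was 1.48 points (exact permutation p = 0.0659) with a promoter of 2000 bp and 6.82 to 7.64 without single animals. That of Trp53 was -0.567 with a minimum of 20 reads, where fewer rows remained, and 8.89 to 9.28 without single animals. That of Cdkn1a, not past the threshold, was -0.252 with a promoter of 500 bp and -0.0171 to 0.121 without single animals, the lowest without Tg female 3. Cdkn2b (16.9 to 20.5) and Cdkn1b (2.65 to 3.38) kept their direction without any single animal. Of 240 recomputed region differences between genotypes 22 took the other sign, and of 348 at named rows 4 moved by 1 SD or more. A region without 5 rows under an alternative gave no value, which left Cdkn2a, Cdkn2b and Cdkn1b without a body-minus-promoter difference at a minimum of 20 reads. Wt and Tg were separate animals, so the genotype comparisons were not paired. The read minimum of 10 and the 4 Wt animals limit the precision of every difference.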
